A study of Mus musculus with 8 samples.

Results

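The circadian clock of the hippocampus was examined through 10 genes on the 8 arrays of this study: the period genes Per1, Per2 and Per3, the cryptochromes Cry1 and Cry2, the D-box factors Dbp, Tef and Nfil3, and the REV-ERB receptors Nr1d1 and Nr1d2. They are 10 of the 18193 genes measured, and all probe sets annotated to one of these symbols alone were taken, 21 of 45037 in all. A gene is represented by its brightest probe set, that of the highest 8-array mean, and its other probe sets are given beside it. The set was chosen by the log2 values of Nfil3 on these arrays, so Nfil3 is described here without any test. The other 9 genes were tested in a limma fit over all probe sets.

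The study compared hippocampal RNA of female Tg6799 mice (mutants, MT) with that of littermates (LM) at 4 and 8 months of age. Tg6799 mice carry human APP with the Swedish, Florida and London mutations and human PS1 with familial Alzheimer mutations, both driven by the neuronal Thy1 promoter. The littermates lack these transgenes, and no group received an agent. Each of the groups LM4m, MT4m, LM8m and MT8m has 2 arrays, called replicate 1 and replicate 2. Mice were kept in a light-dark cycle, but the time of day at which they were killed is not given in the sources used here, so a difference between groups and a difference in sampling time cannot be told apart.

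The mammalian clock is a loop of transcription. CLOCK and its partner BMAL1 (gene Arntl) activate genes that hold an E-box, and the PER and CRY proteins made from such genes return to block them. In further loops the ROR and REV-ERB receptors activate and repress genes through a shared element, Arntl and Nfil3 among them, while DBP and TEF activate and NFIL3 (E4BP4) represses genes through the D-box. Many tissues, the hippocampus included, carry such a clock, and transcripts such as Dbp and Per1 swing widely over the day.

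The elements named above were looked for in RefSeq promoter windows (build GRCm38.p6) that run from 250 bases before to 50 bases after each annotated start. They were searched on both strands as CACGTG (E-box), CACGTT (variant E-box), TTATGTAA (D-box), TTACGTAA (variant D-box), TAGGTCA (ROR and REV-ERB element) and TGACGTCA (cAMP response element). None of these motifs overlapped another in the windows printed here. Of the 10 genes 9 had a window, 11 windows in all, and Per2 had none. Matches in the windows of Cry2 and Nr1d1 and in the second window of Tef are not printed. The following stretches are examples that hold matches to these motifs, with the motif in capitals and the gene's own strand read 5′ to 3′.
Nfil3, chr13:52981040-52981071, minus strand: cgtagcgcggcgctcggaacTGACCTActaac
Per3, chr4:151044796-151044890, minus strand: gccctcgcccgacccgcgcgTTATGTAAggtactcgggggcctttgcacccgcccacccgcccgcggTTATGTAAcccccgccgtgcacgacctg
Cry1, chr10:85185089-85185153, minus strand: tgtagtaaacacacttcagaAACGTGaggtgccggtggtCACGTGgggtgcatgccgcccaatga
Per1, chr11:69098763-69098808, plus strand: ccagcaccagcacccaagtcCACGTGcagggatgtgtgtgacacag
Tef, chr15:81802526-81802571, plus strand: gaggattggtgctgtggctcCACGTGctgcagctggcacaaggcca

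The Nfil3 stretch ends at the annotated start, and its TGACCTA is TAGGTCA on the other strand, a motif held by 2.61% of the 32851 windows. Per3 holds the D-box at both position -205 and position -158 from the start, where 0.938% of windows hold that motif at all. The E-box was found in 4 of the 11 windows, 1 each of Per1 and Cry1 and a pair of Tef, against 7.15% of all windows. The variant E-box was found in 3 (Cry1, Cry2 and Nr1d1) against 4.68%. The windows of Dbp and Nr1d2 held none of the 6 motifs, which says only that these letters are not in those windows. A match describes the sequence and does not show that a factor binds there.

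Values are log2 expression values made by the authors with RMA, so a difference of 1 is a change of 2-fold. Values ran from 0.979 to 12.8 and the probe sets had a median mean of 2.47, so values near 2 are dim on this scale. Hippocampal markers were present on every array, with Prox1, a factor of dentate granule cells, between 4.86 and 6.08 and Wfs1, which marks CA1 neurons, between 6.11 and 7.70. Thy1, whose promoter drives the transgenes, was 11.73 and 11.82 in MT4m and 11.79 in MT8m replicate 2 but 9.90 in the library labelled MT8m replicate 1, against 9.53 to 9.96 in littermates. In Cst7 and Gfap it goes against its label too, and values of Nfil3, Dbp, Cry1 and Ciart are printed with and without it. In Ttr, a choroid plexus gene, the same library stood with the other MT arrays, at 10.69 against 12.43 to 12.83 in littermates, so its markers conflict. In the study's published gene tables LM and MT are exchanged for these arrays while the ages are the same, so genotype differences here run opposite to those tables. The ratio of 3′ to 5′ signal of Gapdh, a sign of RNA breakdown, was highest in LM4m replicate 1 (a log2 difference of 2.19, against 0.657 to 1.42 on the other arrays). In hippocampal tissue, fewer cells of a type and less RNA per cell cannot be told apart.

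Nfil3, the D-box repressor, was lower on every 8-month array than on every 4-month array. Its log2 values were 3.89 and 3.84 in LM4m, 3.67 and 3.73 in MT4m, 3.28 and 3.15 in LM8m, and 3.13 and 2.96 in MT8m. The lowest 4-month array therefore lay well above the highest 8-month array, and the gap was of like size in both genotypes. Replicate 1 of MT8m is the library that goes against its label in Thy1, Cst7 and Gfap. The mean difference of 8 minus 4 months was -0.65 in LM and -0.66 in MT, and -0.65 (SE 0.09) over both genotypes, 1.57-fold lower at 8 months. With any 1 array left out it lay between -0.69, without the library labelled MT8m replicate 1, and -0.61, without MT8m replicate 2.

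The order of the Nfil3 group means followed age first and genotype second. LM4m came first at 3.87 ± 0.04 (SD, n = 2), then MT4m at 3.70 ± 0.04, LM8m at 3.22 ± 0.09 and MT8m at 3.05 ± 0.12. The step from MT4m to LM8m, neighbours in this order, was wider than any spread within a group. The steps from LM4m to MT4m (-0.16) and from LM8m to MT8m (-0.17) exceeded the SDs, but arrays of one group all on one side of the other are common here, in 37.7% of genes between genotypes at 4 months and in 27.1% at 8 months. Without the library labelled MT8m replicate 1 the genotype difference at 8 months was -0.26. Since Nfil3 was chosen for this pattern, these values are a description.

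**Figure D1:**
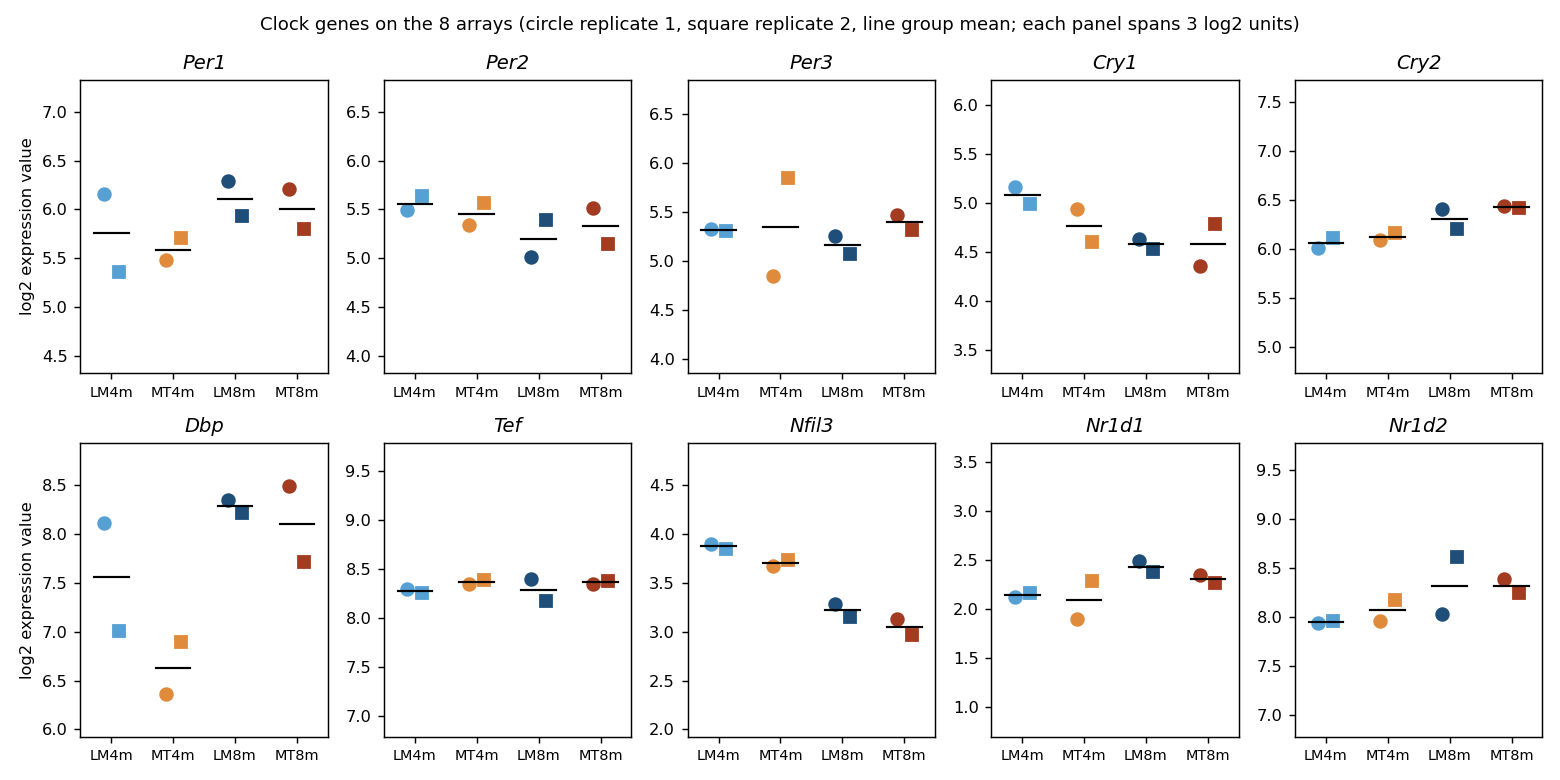
The 10 clock genes in the 4 groups (x axis), as log2 expression values (y axis) in panels that each span 3 log2 units; circles are replicate 1, squares replicate 2 and lines group means. Nfil3 falls into 4-month values of 3.67 to 3.89 and 8-month values of 2.96 to 3.28, while Dbp spreads within groups, from 7.01 to 8.11 in LM4m.

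Dbp, the D-box activator that NFIL3 opposes, had the largest age difference of the 10 genes by its mean, in the other direction, and did not pass the test. Its log2 values were 8.11 and 7.01 in LM4m, 6.36 and 6.89 in MT4m, 8.34 and 8.21 in LM8m, and 8.49 and 7.71 in MT8m. The age groups overlapped through a single array, LM4m replicate 1 at 8.11, which stood above MT8m replicate 2. The averaged difference of 8 minus 4 months was 1.09 (SE 0.26), 2.14-fold higher at 8 months, with a limma adjusted p of 0.579 (0.00283 unadjusted). It stayed above 0 with each array left out in turn, from 0.82 without LM4m replicate 2 to 1.37 without LM4m replicate 1, and was 0.90 without the library labelled MT8m replicate 1.

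Within genotypes the Dbp difference depended on single arrays. In MT it was 1.47 (SE 0.37; limma adjusted p = 0.81), and 1.09 without the library labelled MT8m replicate 1. In LM it was 0.71 (SE 0.37; limma adjusted p = 1), but 0.16 without LM4m replicate 2 and 1.27 without LM4m replicate 1. The interaction of genotype and age was 0.76 (SE 0.53), with an interval of -0.44 to 1.96, so the age difference was not shown to differ between LM and MT. At 4 months Dbp was lower in MT than in LM by -0.94 (SE 0.37; limma adjusted p = 0.944), and at 8 months the difference was -0.18, or -0.56 without the library labelled MT8m replicate 1.

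The second Dbp probe set gave the same picture. Its log2 values were 5.55 and 4.91 in LM4m, 3.87 and 4.80 in MT4m, 6.24 and 6.27 in LM8m, and 6.60 and 5.32 in MT8m. Again one 4-month array, LM4m replicate 1, stood above one 8-month array, MT8m replicate 2. The averaged age difference was 1.33 (SE 0.30), 2.51-fold higher at 8 months, with a limma adjusted p of 0.56.

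**Figure D2:**
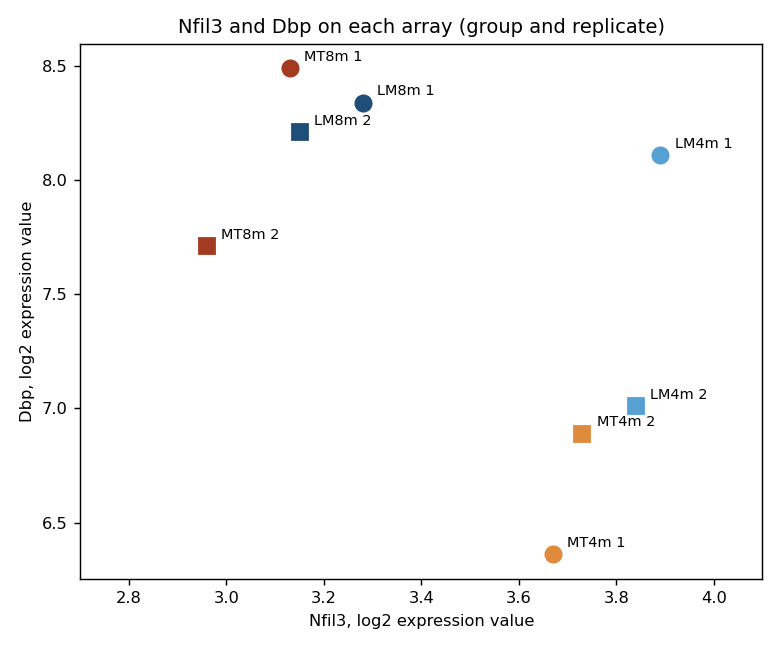
Log2 expression value of Dbp (y axis) against that of Nfil3 (x axis) on each array, labelled by group and replicate, with circles for replicate 1 and squares for replicate 2. The 8-month arrays lie at Nfil3 values of 3.28 and below with Dbp at 7.71 and above, and LM4m replicate 1 joins a high Nfil3 of 3.89 with a high Dbp of 8.11.

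The plot of Dbp against Nfil3 separates the ages along the Nfil3 axis. Over the 8 arrays the Pearson correlation of the pair was -0.56, a description over arrays that share their groups. Within groups the pair did not run opposite by the brightest probe sets: the array of a group with the higher Dbp also had the higher Nfil3 in 4 of 4 groups. The Nfil3 gaps were only 0.06, -0.06, 0.13 and 0.17 in the order LM4m, MT4m, LM8m and MT8m. By the second Dbp probe set, at 6.24 and 6.27 in LM8m, the pair ran opposite in that group.

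Tef, the other D-box activator, stayed level by its brightest probe set. Its log2 values ran from 8.18 to 8.40 over all 8 arrays, and the groups overlapped in age. The averaged age difference was 0.00, with a 95% interval of -0.20 to 0.21, and the genotype difference was 0.09, with an interval of -0.12 to 0.29. Its second probe set read otherwise, with 3.86 and 3.70 in LM4m, 3.38 and 3.86 in MT4m, 4.21 and 4.20 in LM8m, and 4.47 and 3.99 in MT8m. On that probe set every 8-month array was above every 4-month array and the averaged age difference was 0.52 (SE 0.14; limma adjusted p = 0.629). The third probe set of Tef differed by -0.09.

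The period genes encode the proteins that return to the nucleus with the cryptochromes and inhibit CLOCK and BMAL1. Per1, which light and neuronal activity also induce, read 6.16 and 5.36 in LM4m, 5.48 and 5.71 in MT4m, 6.29 and 5.93 in LM8m, and 6.21 and 5.80 in MT8m. As with Dbp, LM4m replicate 1 stood with the 8-month arrays and the other 4-month arrays lay below them. Over both genotypes the age difference was 0.38 (SE 0.19; limma adjusted p = 0.792), ranging from 0.18 to 0.58 with 1 array left out, and the genotype difference was -0.14 (SE 0.19).

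Per2 and Per3, the other period genes, gave probe sets that disagreed in sign with age. The brightest Per2 probe set read 5.49 and 5.64 in LM4m, 5.34 and 5.57 in MT4m, 5.01 and 5.39 in LM8m, and 5.51 and 5.15 in MT8m, so that the ages overlapped. Its averaged age difference was -0.24 (SE 0.13; limma adjusted p = 0.8), while its other probe sets differed by 0.41 (SE 0.22) and 0.15 (SE 0.14). The brightest of the Per3 probe sets differed by -0.06 (SE 0.19) with age and spread from 4.85 to 5.85 within MT4m, the full range of all 8 arrays.

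A second Per3 probe set was higher on the 8-month arrays than on 3 of the 4-month arrays. It read 3.72 and 3.80 in LM4m, 3.57 and 4.53 in MT4m, 4.51 and 4.51 in LM8m, and 4.87 and 4.75 in MT8m. MT4m replicate 2, which also carried the highest value of the brightest probe set, was the single 4-month array among the 8-month values. With age it differed by 0.75 on average (SE 0.19), 1.69-fold higher at 8 months, with a limma adjusted p of 0.581. The remaining 4 Per3 probe sets differed by 0.02 to 0.27.

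The cryptochromes, the repressors that bind CLOCK and BMAL1 most directly, differed with age in opposite directions. Cry1 read 5.16 and 4.99 in LM4m, 4.94 and 4.60 in MT4m, 4.63 and 4.53 in LM8m, and 4.36 and 4.79 in MT8m. Values were lower at 8 months with an overlap between MT4m replicate 2 and some 8-month arrays. It differed with age by -0.34 over both genotypes (SE 0.13; limma adjusted p = 0.705), made of -0.50 in LM and -0.19 in MT, and the MT difference was 0.02 without the library labelled MT8m replicate 1.

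Cry2 read 6.01 and 6.11 in LM4m, 6.09 and 6.16 in MT4m, 6.40 and 6.20 in LM8m, and 6.44 and 6.42 in MT8m. Every 8-month array was above every 4-month array, by a small margin between MT4m replicate 2 and LM8m replicate 2. Over both genotypes the difference was 0.27 (SE 0.09), 1.21-fold higher at 8 months, with a limma adjusted p of 0.668. By brightest probe sets, Cry2 was the only 1 of the 9 tested genes whose ages did not overlap on any array. Of all genes 3.81% did not overlap in either direction, 1.37% higher at 8 months and 2.44% lower. Nfil3, chosen for its values, is not counted.

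The REV-ERB receptors, nuclear receptors that repress Arntl and Nfil3, had averaged age differences above 0. Nr1d2 (REV-ERBβ) read 7.94 and 7.96 in LM4m, 7.96 and 8.17 in MT4m, 8.03 and 8.61 in LM8m, and 8.39 and 8.24 in MT8m. LM8m replicate 1 was the only 8-month array that lay under a 4-month array. Averaged over genotypes, the age difference was 0.31 (SE 0.14; limma adjusted p = 0.773), and without LM8m replicate 2, the highest array, it was 0.16. A second Nr1d2 probe set, dim at a mean of 1.77, differed by 0.03.

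Nr1d1 (REV-ERBα) was dim, with a mean of 2.24. It read 2.12 and 2.16 in LM4m, 1.90 and 2.29 in MT4m, 2.49 and 2.38 in LM8m, and 2.35 and 2.27 in MT8m. MT4m replicate 2 was the single 4-month array above an 8-month array. Averaged over genotypes, it differed by 0.26 with age (SE 0.11; limma adjusted p = 0.749), and differences between such dim values may be compressed.

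Of the 9 genes tested, 0 passed at an adjusted p under 0.05 in the age difference averaged over genotypes, in which 0% of the 45037 probe sets passed. At an unadjusted p under 0.05, 4 of the 9 (Cry1, Cry2, Dbp and Nr1d1) were called there, against 6.47% of 18193 genes. The median age difference of the 9 genes was 0.26, against -0.00 over all genes. The genes were proposed with values of these arrays known, so neither count is independent of the data. Within LM, 0 of 9 passed (0% of probe sets) and 1 was called unadjusted (Cry1) against 3.48% of genes. Within MT, 0 passed (0%) and 2 were called unadjusted (Dbp and Cry2) against 5.78%.

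Arrays of the ages did not overlap for 7 of the 9 genes within LM, against 29.5% of all genes, and for 4 of 9 within MT, against 35.8%. Nfil3, lower at 8 months in both, is left out of these counts. In LM, 4 (Cry2, Dbp, Nr1d1 and Nr1d2) had higher values at 8 months, against 12.3% of all genes, and 3 (Per2, Per3 and Cry1) lower ones, against 17.2%. In MT, 4 (Cry2, Dbp, Nr1d2 and Per1) were higher, against 18.4%, and 0 were lower, against 17.4%. Per1 and Tef overlapped in LM. All these counts take the brightest probe set of a gene. The second probe sets of Per3 and Tef were higher at 8 months without overlap in LM and in MT. In LM the other Per2 probe sets overlapped, with differences of 0.35 and -0.09. The dimmer of them was higher without overlap in MT, by 0.40. The second Nr1d2 probe set overlapped in both genotypes.

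**Figure D3:**
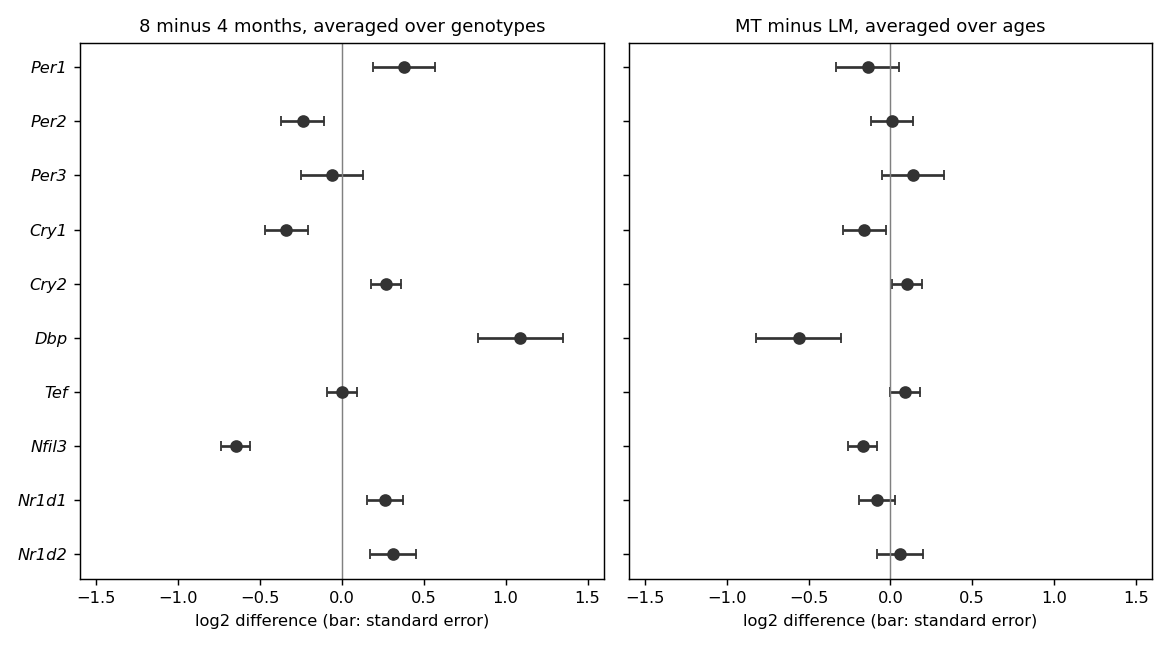
Log2 difference (x axis) of the 10 clock genes (rows) between 8 and 4 months averaged over genotypes, left, and between MT and LM averaged over ages, right, with bars for the standard error. Dbp at 1.09 and Nfil3 at -0.65 lie farthest from 0 with age, and Dbp at -0.56 lies farthest with genotype, followed by Nfil3 at -0.17.

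No genotype difference of a tested clock gene passed. Averaged over ages, 0 of 9 passed (0.06% of probe sets passed) and 0 were called unadjusted against 6.72% of genes, and the median difference of the 9 genes was 0.01. The largest was that of Dbp, lower in MT by a difference of -0.56 (SE 0.26; limma adjusted p = 0.853), which was -0.28 without LM4m replicate 1 and -0.83 without LM4m replicate 2. Leaving out the library labelled MT8m replicate 1 gave -0.75. For Per1 the interval of the difference was -0.57 to 0.30, so differences within it are not excluded. Nfil3 differed by -0.17. Over all probe sets 27 passed, and 142 without the library labelled MT8m replicate 1, a fit in which 0 of the 9 clock genes passed either.

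At 4 months, 0 of 9 genes passed between genotypes (0% of probe sets), with Dbp called unadjusted against 5.74% of genes. At 8 months 0 passed (0.02% of probe sets, 9 in number, and 95 without the library labelled MT8m replicate 1) and 0 were called unadjusted against 3.54%. The interaction gave 0 passing (0%) and 0 unadjusted against 2.58%, and the F test over the 4 groups gave 0 passing (0.0133%) and Dbp alone unadjusted against 5.38%. Of the 9 genes, 0 kept LM and MT arrays apart over both ages, where 3.69% of all genes did. At 4 months 4 of 9 did (37.7% of all genes), and at 8 months 3 of 9 did (27.1%).

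The spread between the arrays of one group, which sampling at different hours would widen, varied strongly among the clock genes. The pooled SD within groups was 0.514 for Dbp, above 98.4% of probe sets, 0.362 for Per3 (94.3%) and 0.353 for Per1 (93.8%). It was 0.083 for Cry2, 0.081 for Nfil3 and 0.080 for Tef, each at or below the 12.2 percentile. The median of the 10 genes was 0.208, against 0.159 for all genes and 0.211 for 19 other clock genes. It was 0.473 for 10 immediate early genes, which neurons switch on within minutes of activity. Lists outside the clock also had wider medians than the 10 genes. These were 0.236 for 5 temperature and heat shock genes and 0.314 for 8 genes induced by glucocorticoids. For 6 hippocampal markers the median was 0.335, and for 6 choroid plexus markers 0.455. The MT8m gap enters these SDs, and replicate 1 of MT8m is the library that goes against its label in Thy1, Cst7 and Gfap. Whether the arrays differed in hour of sampling was not tested.

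**Figure D4:**
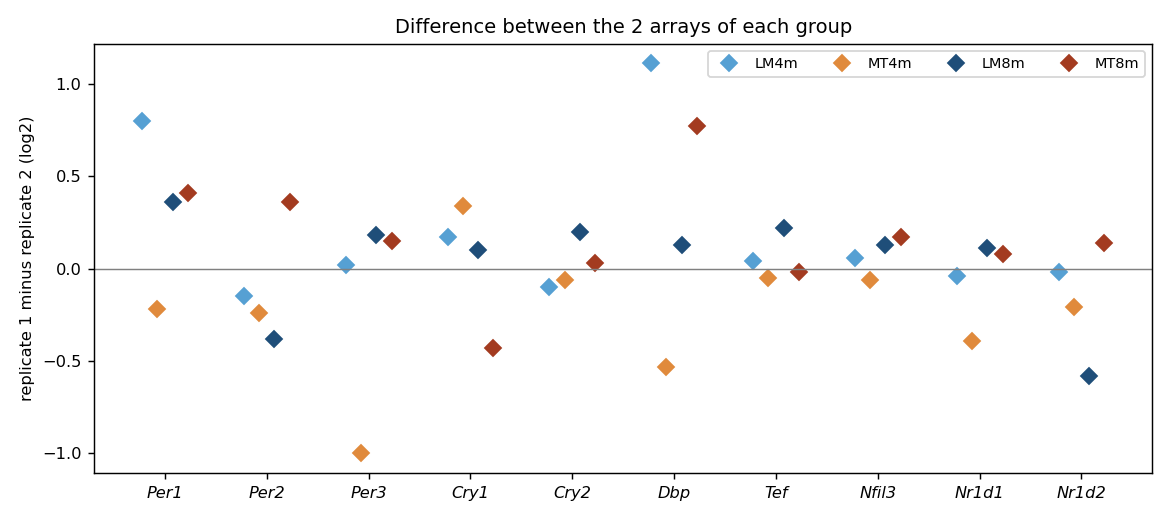
Log2 value of replicate 1 minus replicate 2 (y axis) for the 10 clock genes (x axis), with 1 diamond for each group. Dbp spans 1.11 in LM4m to -0.53 in MT4m, Per1 follows with 0.80 and -0.22, and Nfil3 stays between -0.06 and 0.17.

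Dbp and Per1 moved together between the arrays of a group. Replicate 1 minus replicate 2 of Dbp was 1.11 and -0.53 at 4 months (LM4m, MT4m) and 0.13 and 0.77 at 8 months (LM8m, MT8m). For Per1 these differences were 0.80, -0.22, 0.36 and 0.41, of the same sign in 4 of 4 groups. Per3 and Nfil3 had the sign of Dbp in 4 of 4 groups too, but the Per3 gap in LM4m was only 0.02. By the second Dbp probe set the LM8m difference was -0.03, opposite in sign to those of Per1, Per3 and Nfil3. Over the 8 arrays, which share groups and normalization, the Pearson correlation with Dbp was 0.89 for Per1, 0.74 for Nr1d1, 0.53 for Cry2, 0.47 for Nr1d2 and -0.42 for Cry1. It was 0.09 for Per3, -0.14 for Tef and -0.30 for Per2. The correlation with Nfil3 was -0.87 for Cry2, -0.72 for Nr1d2 and 0.68 for Cry1. Nfil3 was chosen for values that part the ages, so a correlation with it largely restates a gene's own age difference. Genes outside the clock reached like sizes, with 0.85 for Dnajb1, 0.84 for Hsph1 and -0.82 for Cirbp.

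Outside LM8m, the within-group differences of Dbp and Per1 lay on arrays that also differed in immediate early genes. The mean deviation of the 10 immediate early genes was 0.50 and -0.07 in LM4m, -0.38 and 0.06 in MT4m, 0.01 and -0.04 in LM8m, and 0.39 and -0.47 in MT8m. By the brightest Dbp probe set, the array with the higher Dbp had the higher value in 4 of 4 groups. In LM8m that rests on 0.01 against -0.04, and the second Dbp probe set went the other way there, at 6.24 and 6.27. Arc, Egr1 and Dusp1 had the widest gaps between the arrays of a single group, with Arc at 6.92 and 4.98 on the MT8m arrays. The widest gaps of Arc and Egr1 were those of MT8m, whose replicate 1 goes against its label in Thy1, Cst7 and Gfap. A genotype difference and a spread within a group cannot be told apart there. LM4m replicate 1 held both the higher Dbp and Per1 of its group and the highest Gapdh 3′ to 5′ ratio. In LM8m, too, the array with the higher Per1 and the higher brightest Dbp probe set had the higher ratio (1.42 against 0.657). In MT4m (0.991 against 1.01) and MT8m (0.930 against 1.17) the array with the higher Dbp and Per1 had the lower ratio. The part of RNA breakdown in these values was not tested. The immediate early list passed in 0 of 10 genes for age (0% of all probe sets), with 0 called unadjusted against 6.47% of all genes. Its part in the values of Dbp and Per1 was not tested.

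Other genes of the clock, 19 in number, showed no age difference that passed. Their averaged age differences ran from -0.39 to 0.67 with a median of 0.00, and 3 of 19 were called unadjusted (Arntl, Ciart and Btrc), against 6.47% of all genes. By brightest probe sets, the arrays of the ages overlapped for all 19 of them, where 3.81% of all genes did not. Those of the genotypes did too, where 3.69% did not. Some dimmer probe sets read otherwise. The other Rorb probe sets were lower at 8 months without overlap, and a Rora probe set with a mean of 2.29 was higher. Another Rora probe set, with a mean of 2.80, was lower in MT without overlap.

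Arntl, which encodes BMAL1 and whose transcript peaks opposite to Dbp in the tissues where clocks are known, read 4.77 and 5.28 in LM4m, 5.19 and 4.99 in MT4m, 4.42 and 4.91 in LM8m, and 4.89 and 4.47 in MT8m. LM4m replicate 1, high in Dbp, was the lowest of the 4-month arrays in Arntl. Replicate 1 minus replicate 2 of Arntl had the sign of Dbp in 1 of 4 groups, MT8m, at 0.41 against 0.77 for Dbp. By the second Dbp probe set it had that sign in LM8m too. The averaged age difference was -0.39 (SE 0.17; limma adjusted p = 0.759), and the correlation with Dbp over the 8 arrays was -0.66. A second Arntl probe set differed with age by -0.16 (SE 0.11). The other activators of the E-box differed less, with Clock at -0.10, Npas2 at 0.11 and Arntl2 at 0.00.

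Ciart, which encodes the repressor CHRONO, read 3.23 and 2.73 in LM4m, 3.03 and 2.91 in MT4m, 3.45 and 3.79 in LM8m, and 4.33 and 2.99 in MT8m. The library labelled MT8m replicate 1 was the highest of all arrays and MT8m replicate 2 lay among the 4-month values. The averaged age difference was 0.67 (SE 0.27; limma adjusted p = 0.737), but 0.33 without the library labelled MT8m replicate 1, where the difference within MT was 0.02, and 1.00 without MT8m replicate 2. Its promoter window held 3 E-boxes, more than that of any other clock gene here, and the stretch that holds them is shown for that reason.
Ciart, chr3:95882247-95882364, minus strand: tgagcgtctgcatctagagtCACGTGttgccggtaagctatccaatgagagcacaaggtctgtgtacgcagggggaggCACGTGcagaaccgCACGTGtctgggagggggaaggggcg

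The receptors that compete with REV-ERB differed by 0.05 (Rora) and -0.25 (Rorb), and Hlf, a D-box activator related to Dbp, by -0.20. Among the further output and repressor genes, the differences were 0.13 for Bhlhe40, 0.05 for Bhlhe41, 0.22 for Usp2, -0.23 for Wee1 and -0.16 for Nampt. Among kinases, ubiquitin ligases and their partners they were -0.07 for Csnk1d, 0.20 for Csnk1e, 0.06 for Fbxl21, -0.34 for Btrc, -0.22 for Timeless and 0.29 for Tipin. Usp2, an output gene that rises with Dbp in many tissues, had a correlation of 0.81 with Dbp over the 8 arrays, and Nampt one of -0.84.

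**Figure D5:**
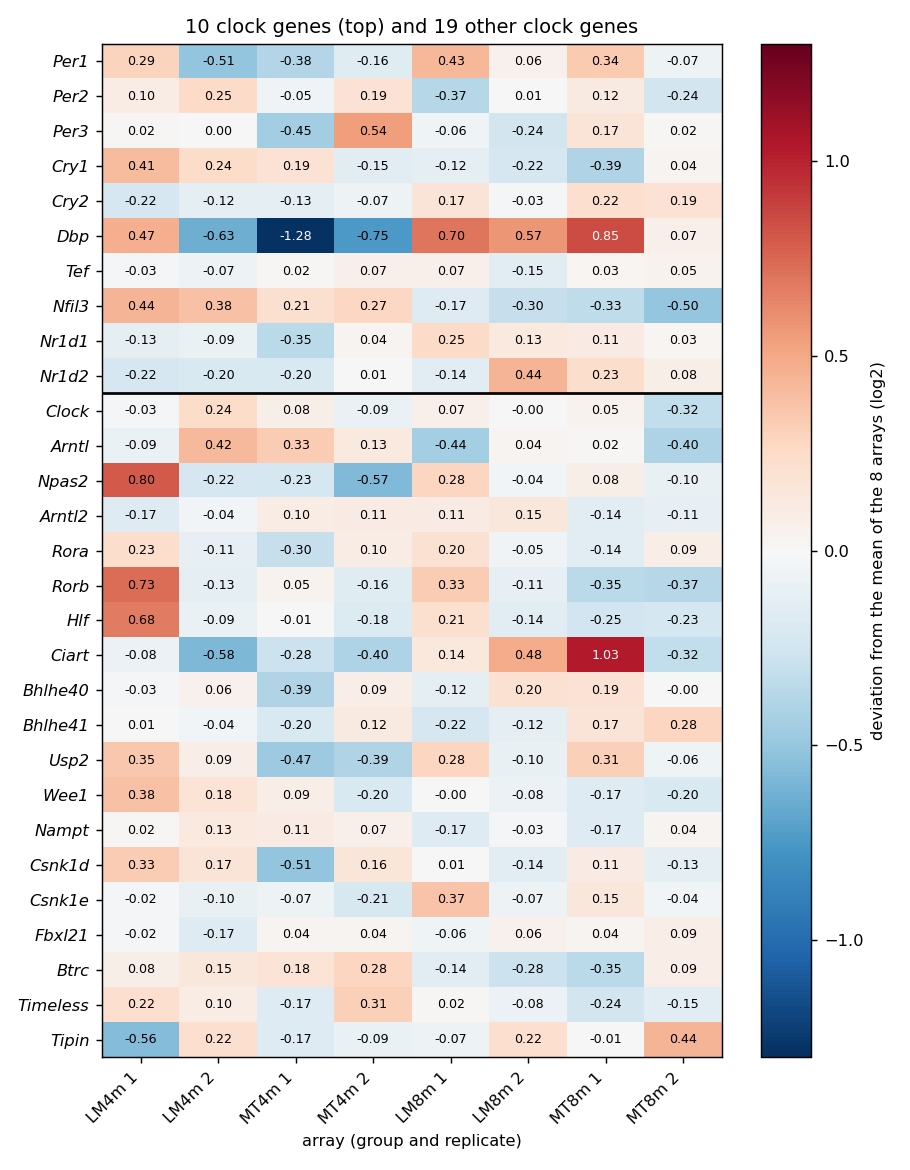
Log2 value of each gene (rows) minus its own 8-array mean, as a colour with the number written in it, array by array (columns), with the 10 clock genes above the line and 19 other clock genes below it. Dbp runs from -1.28 in MT4m replicate 1 to 0.85 in the library labelled MT8m replicate 1, and Nfil3 is above 0 on all 4-month arrays and below 0 on all 8-month arrays.

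Body temperature also carries a daily rhythm, and Cirbp, which encodes a cold-inducible RNA-binding protein, read 5.64 and 4.91 in LM4m, 4.84 and 4.83 in MT4m, 6.32 and 5.97 in LM8m, and 5.89 and 6.90 in MT8m. Every 8-month array was above every 4-month array. Averaged over genotypes, the difference was 1.22 (SE 0.24; limma adjusted p = 0.459). The heat shock genes were lower, by differences of -0.60 for Hspa1b, -0.48 for Hsph1, -0.43 for Dnajb1 and -0.26 for Hspa1a, and 0 of 5 genes of this list passed, while 4 of 5 (all but Hspa1a) were called unadjusted against 6.47% of all genes. Leaving out the library labelled MT8m replicate 1 gave 1.47 for Cirbp and -0.43 for Hspa1b. Whether body temperature or hour of sampling had a part in these values was not tested. Of 8 genes induced by glucocorticoids, whose secretion is also daily, 0 passed (0% of all probe sets) and 0 were called unadjusted against 6.47% of all genes. Their differences ran from -0.26 to 0.40. Sgk1, Mt2 and Sult1a1 had the widest gaps between the arrays of a single group, and those of Sgk1 and Mt2 were in MT8m, which holds the library that goes against its label.

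The genes whose values ran most like those of Nfil3 over the 8 arrays were sought among 1311 genes with a range of at least 1 log2 unit. They were Dio2 (Pearson r of 0.956), Fosl2 (0.952), Zdbf2 (0.952), Htr1b (0.937) and Crh (0.929). Fosl2, an AP-1 factor, read 7.05 and 6.75 in LM4m, 6.80 and 6.41 in MT4m, 6.12 and 6.03 in LM8m, and 5.91 and 5.51 in MT8m, with the ages apart on every array as in Nfil3. Nfil3 was chosen for its values and these genes for their likeness to it, so the search itself favours genes that part the ages, and the values are a description. For Dbp the same search over 1310 genes gave C1qtnf12 (0.929), Fxr2 (0.922), 5033430I15Rik (0.885), Dennd6b (0.882) and Ltk (0.882), and the range minimum left out most clock genes, Per1 among them, with a range of 0.94 and a correlation of 0.89.

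All 6 markers listed for the choroid plexus, which a hippocampal dissection can include, had lower means in MT at both ages. By their brightest probe set 5 of 6 passed for genotype averaged over ages, against 0.06% of all probe sets. The widest gaps between the arrays of a single group were in Kcnj13, Kl and Cldn2. The mean deviation of the 6 markers was between 0.73 and 1.97 on the LM arrays and between -1.37 and -1.09 on the MT arrays. It was -1.17 on the library labelled MT8m replicate 1, which here stood with the MT arrays. Of the 6 markers, 0 passed for age (0% of all probe sets). Their part in the genotype values of the clock genes was not tested.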

How the data were processed

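Hippocampal RNA from female Tg6799 mice and littermates was hybridised to Affymetrix mouse genome arrays, 8 in all. The authors used affy, an R package whose version is not given in the sources used here, for RMA. The deposited log2 values cover 45101 probe sets, from which 64 controls were left out. Depth does not apply to arrays, and their number limits the precision. Of the 45037 probe sets, 34945 had 1 gene symbol, 932 several and 9160 none.

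Group means were fitted with limma 3.58.1 in R 4.3.3 (4 residual degrees of freedom), p-values are two-sided and adjusted by Benjamini-Hochberg over all 45037 probe sets, and a probe set passed under 0.05. The F test stands for the 4-class test of the study's methods. Nothing in the labels ties arrays to separate animals, and the series counts 4 MT animals an age where 2 arrays were analysed, so p-values cover only the spread between samples, which may be technical. The members and lists were chosen with earlier results of these data known. Named were all members, all other clock genes, widest-spread genes of other lists, and the 5 genes most like Nfil3 and Dbp. On simulated data, 82% of age differences of 1 log2 unit averaged over genotypes were recovered among 45037 probe sets, and 3.83% of calls were false. Of differences of that size within LM, 49% were recovered. These changes were set on probe sets drawn at random. Apart from Dbp the tested genes differed by less with age, and Dbp spread more within groups than most probe sets, so the rates do not carry over to them. Alternatives were cyclic loess, leaving out dim probe sets, a trended robust prior, 1 probe set per gene, 2-group fits, a replicate block and each array left out. The title numbers correlated by 0.241 in LM and -0.175 in MT.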

Additional observations from a re-analysis of the deposited data

Results flagged for a closer look

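Arntl2 and Bhlhe41, both dim, differed in direction between groups. Arntl2, a relative of Arntl, was 2.21 and 2.33 in LM4m, 2.48 and 2.49 in MT4m, 2.49 and 2.53 in LM8m, and 2.24 and 2.27 in MT8m. Its genotype difference (MT minus LM) was 0.21 at 4 months and -0.25 at 8 months, and its age difference (8 minus 4 months) was 0.24 in LM and -0.23 in MT, with every array of one group moving against every array of the other. The interaction was -0.47 (SE 0.17; limma adjusted p = 1), and a second probe set gave -0.17 (SE 0.24). Bhlhe41, which encodes the E-box repressor DEC2, had an age difference of -0.15 in LM and 0.26 in MT, with an interaction of 0.42 (SE 0.20; limma adjusted p = 1). Its second probe set differed in the same direction in both, by 0.07 in LM and 0.13 in MT, with an interaction of 0.05 (SE 0.18). Neither interaction passed, and none of the 10 clock genes showed such a pattern. With 2 arrays a group, no array could be tested for standing apart from its group.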

How the results depend on the processing

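The number of probe sets passing among the 9 tested clock genes was 0 in all 8 comparisons (7 differences and the F test) under every alternative run, up to 15 a comparison, left-out arrays included, with no other value. Of their 63 differences, recomputed to 934 values, 68 had the other sign and 0 passed. Of 96 values of Nfil3, not tested, 4 had the other sign, all of the interaction, which was -0.01. In LM, the Per1 age difference was -0.05 without LM4m replicate 2 and 0.75 without LM4m replicate 1. The filter on dim probe sets removed Nr1d1. The title numbers were not shown to pair the samples, and as a replicate block they gave 0 passing in each age comparison and the interaction. The crossed pairing of the MT numbers, chosen after seeing the data, gave 0 passing too. No paired analysis was possible because the numbers are nested in genotype, for differences between LM and MT.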
